A study of Mus musculus with 3 samples.

Results

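A naive T cell is held in quiescence, a small, non-dividing state with little protein synthesis, until its antigen receptor and CD28 are engaged. Part of this state is kept by genes that restrain growth. The BTG and TOB proteins bring the CCR4-NOT deadenylase to mRNAs and so shorten their poly(A) tails, PDCD4 holds the helicase eIF4A and so limits cap-dependent initiation, TXNIP is an alpha-arrestin that limits glucose uptake and binds thioredoxin, and SLFN2 is a Schlafen protein whose loss takes T cells out of quiescence. DAPL1 is a small protein related to the death-associated protein DAP.

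The 8 genes described here, *Btg1*, *Btg2*, *Tob1*, *Tob2*, *Pdcd4*, *Txnip*, *Dapl1* and *Slfn2*, were taken by name from the 31053 genes of the count tables, and all 8 had UMIs (unique molecular identifiers, 1 per captured transcript) in each library. Single-cell libraries were made from 7AAD-CD3+CD4+ spleen cells of C57BL/6 mice, 1 library per condition, after magnetic enrichment for naive cells. The unstimulated WT cells came from Ift20 f/f mice and had received DPBS, the stimulated WT cells came from the same genotype after 24 h with 1 μg/mL each of anti-CD3 and anti-CD28 antibodies, and the stimulated IFT20-KO cells came from Ift20 f/f CD4 cre mice after the same treatment. The mice of the study were males of 5 to 10 weeks, and all 3 groups carry the floxed *Ift20* allele. Cre was driven by the *Cd4* promoter, which is active from T cell development in the thymus on. How many mice gave each library is not given in the sources used here.

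With cells kept at more than 200 genes and less than 15% of UMIs from mitochondrial genes, 8031 cells of the unstimulated WT, 9903 of the stimulated WT and 13920 of the stimulated IFT20-KO library remained, with medians of 4627, 12167 and 5014.5 UMIs. *Ift20* itself was at 64.4, 76.0 and 6.60 UMIs per 1000000 of the library (CPM). The share of cells below 4056 UMIs, a limit set from the stimulated WT median, was 23.2% in the stimulated WT and 48.0% in the IFT20-KO library, with median mitochondrial shares of 10.3% and 5.66% in those cells. *Cd3e* was detected in 93.5% to 94.6% of cells, *Ms4a1* in at most 1 cell of the WT libraries, but *Ighm* in 61.8% and 59.3% and *Cst3* in 29.1% and 53.3% of the unstimulated and stimulated WT cells. Pairs of libraries shared 114 to 197 cell barcodes. Since a condition is 1 library, the intervals below (95% level) cover counting error only, and no difference between conditions could be tested.

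The promoters of 3 members are shown because these genes hold the same forkhead motif and were all at lower CPM after stimulation. Forkhead factors of the FOXO family are active in resting T cells and leave the nucleus on AKT signaling. The motif searched was GTAAACA on both strands (TGTTTAC on the other), in windows from 250 bases before to 50 after the start of each gene (RefSeq, GRCm38.p6), and 3.65% of 32851 such windows of all genes hold it. Of the 8 members, all with a window, *Btg1* at -204, *Txnip* at -121 and *Dapl1* at -164 bases from the start have it. The 250 bases before the start are printed 5′ to 3′ on the strand of the gene, which is the plus strand for each, with the forkhead motif in capitals. In *Txnip* the capitals also mark CACGAG, searched on both strands (CTCGTG) after its values were seen, which lies at -85 and -74 and occurs in 6.47% of all windows. It is one of the paired boxes of the carbohydrate response element through which the glucose sensor MondoA acts.
Btg1, chr10:96616751-96617000: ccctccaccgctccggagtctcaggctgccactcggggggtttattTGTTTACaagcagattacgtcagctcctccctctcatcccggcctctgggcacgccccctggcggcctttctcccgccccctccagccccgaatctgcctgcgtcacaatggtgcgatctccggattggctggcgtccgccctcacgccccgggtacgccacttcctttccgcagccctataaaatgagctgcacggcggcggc
Txnip, chr3:96557707-96557956: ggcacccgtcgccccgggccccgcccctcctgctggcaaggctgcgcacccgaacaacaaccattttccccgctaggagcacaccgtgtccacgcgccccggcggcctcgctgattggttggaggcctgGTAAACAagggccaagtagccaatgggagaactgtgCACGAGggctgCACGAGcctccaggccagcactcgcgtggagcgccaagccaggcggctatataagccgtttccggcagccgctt
Dapl1, chr2:59484403-59484652: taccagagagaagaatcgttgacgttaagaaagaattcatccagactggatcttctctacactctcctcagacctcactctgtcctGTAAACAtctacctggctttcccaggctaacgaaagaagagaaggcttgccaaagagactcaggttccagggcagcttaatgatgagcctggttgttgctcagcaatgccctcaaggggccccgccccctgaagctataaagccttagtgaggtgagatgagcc

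The forkhead motif was not found in the windows of *Btg2*, *Tob1*, *Tob2*, *Pdcd4* and *Slfn2*, which says only that these letters are absent there. Of these, *Btg2*, *Tob1* and *Pdcd4* were also at least 2-fold lower by CPM after stimulation. A link between motif and level was not tested. *Btg2* holds TGACGTCA, the cyclic AMP response element, at -166, as do 1.79% of all windows. The E-box CACGTG, present in 7.15% of all windows, was in none of the members' windows. The CCAAT box, in 37.4% of all windows, was found for *Btg1*, *Btg2*, *Tob1*, *Txnip*, *Slfn2* and a window of *Pdcd4*. The TATA box TATAAA, in 13.6% of all windows, was found for *Btg1*, *Tob1* and *Dapl1*. A motif is a run of letters and no evidence of binding in these cells.

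To see what happened to these genes on activation, the stimulated and unstimulated WT libraries were compared. Most members were at a much lower share of the transcriptome after 24 h of stimulation, with *Txnip* the furthest down. *Tob2* stayed near its resting level, and *Slfn2* was somewhat higher over all cells, though not in cells with few UMIs. Their summed share was 0.261% of UMIs in unstimulated WT, 0.106% in stimulated WT and 0.0982% in stimulated IFT20-KO cells. Between the WT libraries, 6 of the 8 members were at least 2-fold lower by CPM and 0 were at least 2-fold higher. Over all 13297 genes with at least 10 UMIs in the 2 libraries, 23% were 2-fold lower and 19.3% 2-fold higher. Of the 6 members that reached 50 CPM in one of them, 5 were 2-fold lower, where 15.7% of the 3339 genes at that level were (24.2% higher). With the stimulated library limited to cells of at least 4056 UMIs, again 6 members were 2-fold lower and 0 higher (25.7% and 18.7% of all genes), or 5 of 6 and 0 of 6 at 50 CPM (16.9% and 24.3%). The median log2 ratio was -1.97 for the members and -0.09 for all genes.

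*Txnip* had 418 CPM in unstimulated WT, 26.6 CPM in stimulated WT and 35.2 CPM in stimulated IFT20-KO cells. Its log2 ratio of stimulated over unstimulated WT was -3.97 (interval -4.03 to -3.92), a 15.7-fold lower level, and 1.66% of all tested genes had a lower ratio. It was the member with the lowest ratio.

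Among the genes that act on mRNA tails, *Btg1* and *Btg2* encode a pair of closely related adaptors that mature T cells need to remain quiescent. *Btg1* was at 752, 254 and 246 CPM in the unstimulated WT, the stimulated WT and the stimulated IFT20-KO cells, with a log2 ratio between the WT libraries of -1.57 (-1.59 to -1.54). *Btg2* was at 247, 58.8 and 62.1 CPM, with a log2 ratio of -2.07 (-2.11 to -2.02). Both genes thus stood at lower CPM in both stimulated libraries than in the unstimulated one.

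*Tob1* and *Tob2*, longer relatives of the BTG proteins that bind the same deadenylase, differed from each other. *Tob1*, which is known to restrain T cell proliferation, was at 37.6 CPM in unstimulated WT, 10.3 CPM in stimulated WT and 13.4 CPM in stimulated IFT20-KO cells, a log2 ratio between the WT libraries of -1.86 (-1.98 to -1.75). *Tob2* was at 42.7, 39.1 and 45.2 CPM, and its log2 ratio was -0.13 (-0.21 to -0.05). The *Tob2* interval lies just below 0, and its sign depends on the scaling: the ratio was positive, at 1.22, when UMIs per cell were compared.

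*Pdcd4*, the inhibitor of eIF4A, was at 224 CPM in unstimulated WT, 40.5 CPM in stimulated WT and 48.0 CPM in stimulated IFT20-KO cells. Its log2 ratio was -2.47 (-2.52 to -2.42), the second lowest of the members. *Dapl1* was at 433, 86.3 and 46.8 CPM, which gave a log2 ratio between the WT libraries of -2.33 (-2.36 to -2.29). It was the member with a clear gap between the stimulated libraries.

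*Slfn2* was the exception in direction over all cells. It was at 459 CPM in unstimulated WT, 543 CPM in stimulated WT and 486 CPM in stimulated IFT20-KO cells. Its log2 ratio between the WT libraries was 0.24 (0.22 to 0.27). This direction differed between ranges of UMIs per cell. Below 4056 UMIs the ratio was -0.44 (-0.53 to -0.36), and in the next higher range it was -0.03 (-0.11 to 0.04). In deeper cells it was 0.38 (0.31 to 0.45) and, with only 13 unstimulated cells in the deepest range, 1.07 (0.73 to 1.43). The cells below 4056 UMIs had median mitochondrial shares of 2.75% (unstimulated) and 10.3% (stimulated). Split by that share, the intervals of *Slfn2* overlapped. Under 5% it was at 518 CPM (501 to 536) in unstimulated and 549 CPM (485 to 620) in stimulated WT cells. At 5% or more it was at 342 CPM (306 to 382) and 341 CPM (323 to 360). These classes were not at like depth. Median UMIs were 3468 in unstimulated and 1254 in stimulated WT cells under 5%, and 1007 and 1860.5 at 5% or more. The parts of depth and mitochondrial share in the direction of *Slfn2* were not tested. SLFN2 is also known to protect tRNAs from cleavage in activated T cells, a role outside quiescence.

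**Figure D1:**
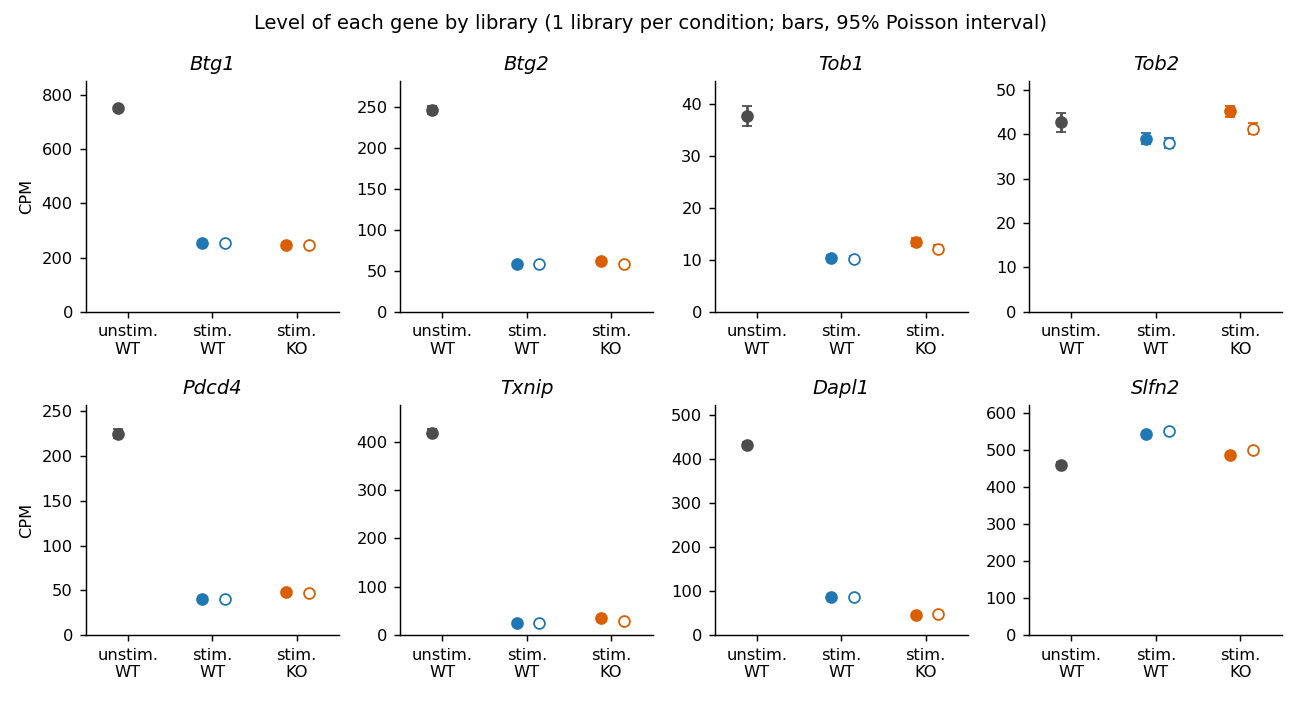
Level of the 8 genes in CPM (linear axis from 0) in the unstimulated WT, the stimulated WT and the stimulated IFT20-KO library. Filled points are all filtered cells, open points the cells with at least 4056 UMIs in the stimulated libraries, and bars are 95% Poisson intervals. *Txnip* stands at 418 CPM before and 26.6 CPM after stimulation, *Slfn2* at 459 and 543 CPM.

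CPM is a share of each library's UMIs, and a stimulated cell held more UMIs. Per cell, *Txnip* went with 1.93 UMIs in unstimulated WT and 0.315 UMIs in stimulated WT cells, and *Dapl1* with 2.004 and 1.02. *Btg1* was close on this scale, at 3.48 and 3.001 UMIs per cell, and *Slfn2* was far higher in the stimulated library, at 2.12 and 6.42. On this scale 2 of the 8 members were at least 2-fold lower and 2 at least 2-fold higher. The share of all genes past 2-fold is not given on this scale, so these counts are not read as a result about the members.

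**Figure D2:**
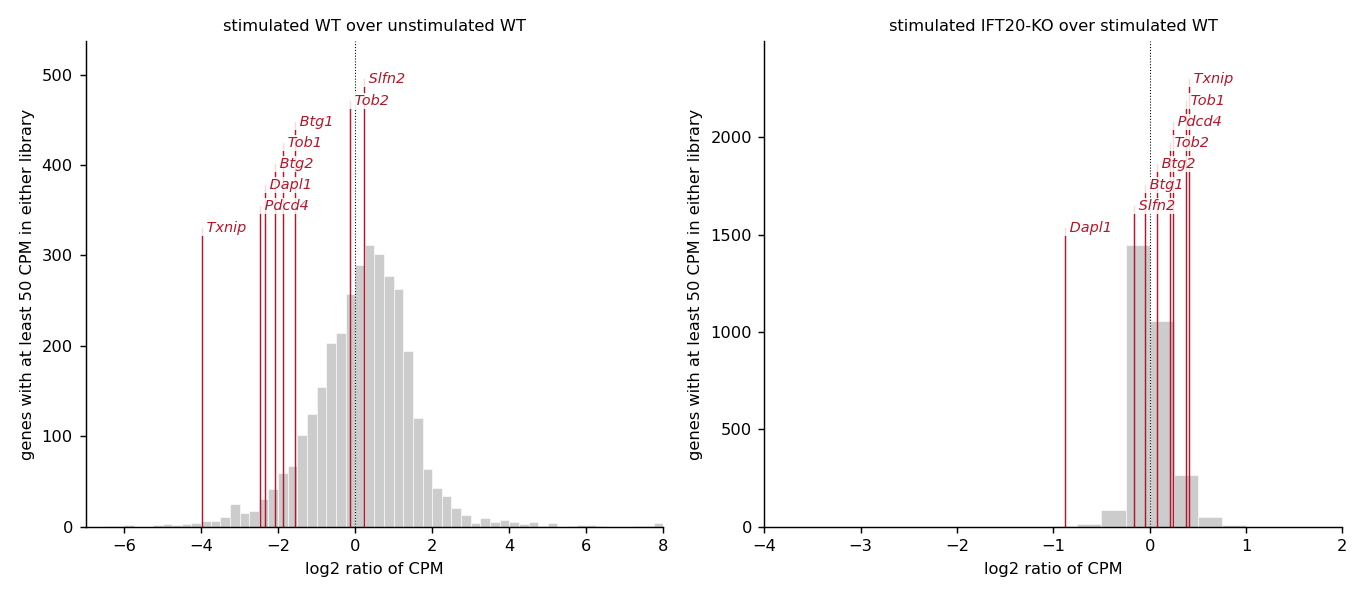
Number of genes (vertical axis) by log2 ratio of CPM (horizontal axis) over genes that reached 50 CPM in one of the libraries, with a red line for each of the 8 members, including those below that level; the last bar on the left panel also holds genes beyond 8. In stimulated over unstimulated WT cells the members run from -3.97 for *Txnip* to 0.24 for *Slfn2*, and in stimulated IFT20-KO over stimulated WT cells *Dapl1*, at -0.88, stands apart from the other members.

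Detection was next compared at equal depth, because a deeper cell shows more of its transcripts. Cells were thinned to 4000 UMIs, which kept 5374, 7604 and 7268 cells of the libraries in the order above and left out 2657, 2299 and 6652 shallower ones. *Txnip* was then seen in 76.7% of unstimulated WT, 9.55% of stimulated WT and 10.1% of stimulated IFT20-KO cells. With all UMIs, the shares in the WT libraries were 77.6% and 22.2%. *Pdcd4* was seen in 56.3%, 14.5% and 17.6% of thinned cells, and in 58.3%, 32.3% and 26.6% with all UMIs.

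*Btg1* was found in most cells of every library, in 90.7%, 60.7% and 59.9% of thinned cells (89.0%, 79.0% and 68.0% with all UMIs). *Btg2* was in 60.0%, 20.1% and 20.4% of thinned cells (62.7%, 40.9% and 32.2%). *Slfn2* was in 77.8%, 82.6% and 80.3% (76.5%, 85.2% and 79.4%). These shares keep the order of the CPM values in the WT libraries.

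*Tob2* shows the effect of depth on such shares. With all UMIs it was in 17.1% of unstimulated and 33.1% of stimulated WT cells although its CPM was slightly lower there, so no order is read from those. Thinned, the shares were 14.6% and 13.8%, with overlapping intervals of 13.6% to 15.5% and 13.0% to 14.6%. *Tob1* was in 13.1% and 3.70% of thinned cells (15.04% and 11.1% with all UMIs). Since every sorted cell may express these genes, no cell type in the libraries gives the level of free RNA for them. As a guide, the B cell gene *Cd79a* was in 0.374% of unstimulated WT cells with all UMIs, and the share of free RNA in the members' counts was not tested.

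**Figure D3:**
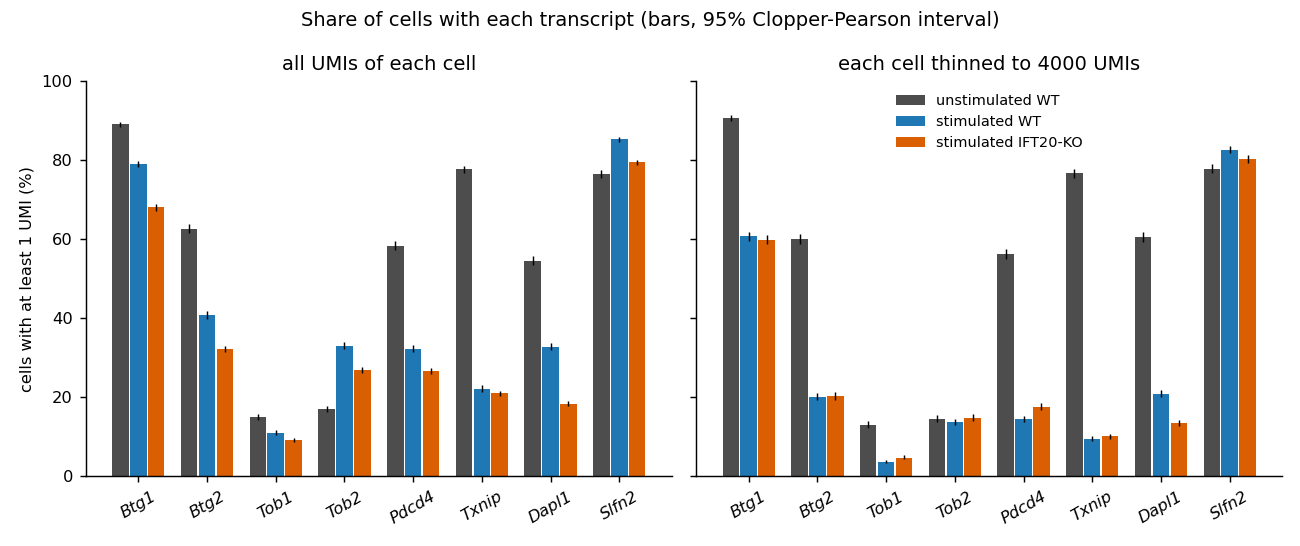
Share of cells (percent, vertical axis) with at least 1 UMI of each gene by library, with all UMIs on the left and with cells thinned to 4000 UMIs on the right (bars, 95% Clopper-Pearson intervals). *Txnip* is in 77.6% and 22.2% of unstimulated and stimulated WT cells on the left and in 76.7% and 9.55% on the right.

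The members were also counted together in each thinned cell. The median unstimulated cell held transcripts of 5 of the 8 members and 10 UMIs of them in all, and the median cell of both stimulated libraries held 2 members and 4 UMIs. At least 5 members were seen in 51.2% of unstimulated WT, 2.22% of stimulated WT and 2.05% of stimulated IFT20-KO cells. Within a library the members hardly varied together, with Pearson correlations over cells between -0.08 (*Pdcd4* with *Slfn2*, 7604 stimulated WT cells) and 0.12 (*Btg1* with *Slfn2*, 5374 unstimulated WT cells), which in sparse counts is no finding.

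*Dapl1* was spread over the cells less evenly than the other members. The variance of its thinned UMIs per cell was 2.64 times the mean in unstimulated WT, 2.51 times in stimulated WT and 2.29 times in stimulated IFT20-KO cells, where a Poisson count would give a ratio near unity. For the other 7 members the ratio lay between 1.03 and 1.57. In unstimulated cells 39.5% had no *Dapl1* UMI and 30.5% had 3 or more, whereas for *Txnip* these shares were 23.3% and 23.5%.

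**Figure D4:**
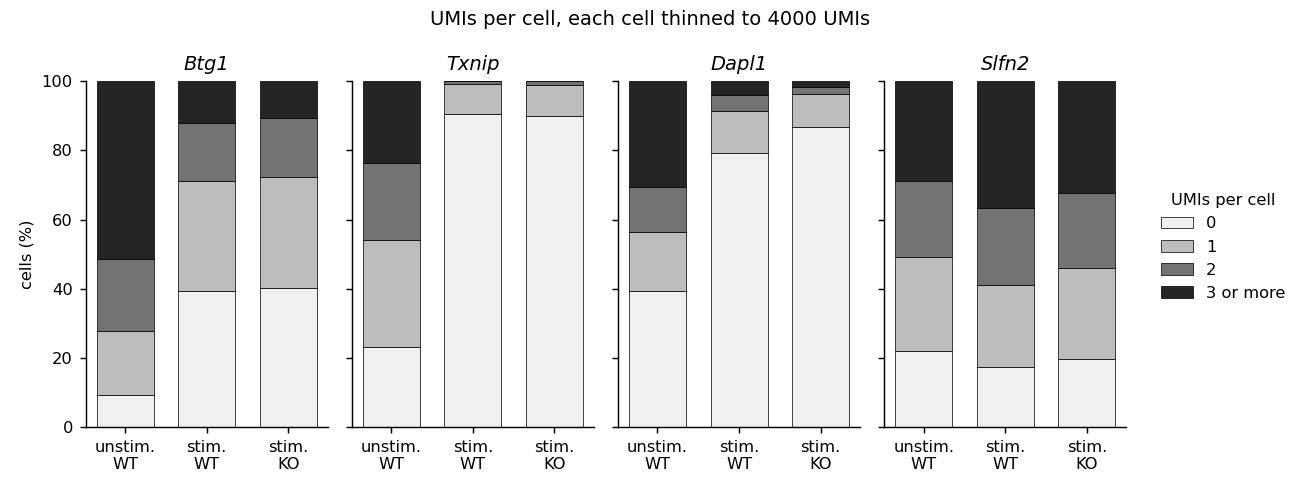
Share of cells (percent, vertical axis) with 0, 1, 2 or at least 3 UMIs of 4 members in each library, with cells thinned to 4000 UMIs. In unstimulated cells *Dapl1* had 39.5% of cells at 0 and 30.5% at 3 or more, and after stimulation 79.1% (WT) and 86.6% (IFT20-KO) of cells were at 0.

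The cells without *Dapl1* in the unstimulated library held more transcripts of regulatory, memory and activated T cells. The 4 regulatory markers (*Foxp3*, *Ikzf2*, *Ctla4*, *Il2ra*) summed to 84.6 CPM (78.5 to 91.0) in the 2122 thinned cells with 0 *Dapl1* UMIs and to 8.40 CPM (6.33 to 10.9) in the 1637 cells with at least 3. *Foxp3*, the lineage factor of regulatory T cells, was at 28.6 and 3.51 CPM. The 5 memory markers summed to 68.9 CPM (63.4 to 74.7) and 36.8 CPM (32.3 to 41.8), with *S100a4* at 5.18 and 0.305 CPM. The 5 activated T cell markers, which include *Il2ra* as well, summed to 207 CPM (197 to 216) and 108 CPM (100.3 to 116). This split was chosen after the values were seen, and the sort for CD3+CD4+ cells does not remove regulatory cells.

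Read from the other side, the 163 unstimulated cells with a *Foxp3* UMI after thinning to 1400 UMIs had 179.7 CPM of *Dapl1* (129 to 244). With all UMIs of the cell, 343 cells had a *Foxp3* UMI, and *Dapl1* was at 195 CPM (175 to 218) in them and at 445 CPM (438 to 452) in the 7664 cells without *Foxp3* or *S100a4*. *Dapl1* was detected in 29.2% and 55.8% of these cells at like depth, with medians of 4583 and 4627.5 UMIs. *Txnip* was higher in the *Foxp3* cells with all UMIs, at 469 CPM (436 to 503) against 416 CPM (409 to 423), without overlap of the intervals. After thinning to 1400 UMIs its intervals overlapped, at 513 CPM (424 to 614) and 422 CPM (410 to 435). With all UMIs, the intervals of the other 6 members overlapped, as for *Btg1* at 752 and 752 CPM and *Pdcd4* at 249.6 and 223 CPM. Among 24 cells with *S100a4*, a memory marker, and no *Foxp3*, *Dapl1* was at 318 CPM (226 to 435) and *Tob2* at 106 CPM (56.5 to 181). *Btg2* was at 399.9 CPM (296 to 529) in these few cells and at 246 CPM (241 to 251) in the cells without either marker.

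The receptors *Il7r*, which naive cells carry, and *Il2ra*, which appears on activation, were used to split the cells further, at 4000 UMIs. *Il2ra* is also 1 of the regulatory markers above, and the share of regulatory cells in the *Il2ra* classes was not tested. The split of the unstimulated library is thus not separate from that by *Foxp3*. In the unstimulated library *Dapl1* was at 499.9 CPM (488 to 512) in 3581 cells with *Il7r* alone and at 88.4 CPM (59.2 to 127) in 82 cells with *Il2ra* alone. The 63 cells with both receptors, at 194 CPM (144 to 257), lay below the 1648 cells with neither, at 389.9 CPM (375 to 405). After stimulation, *Dapl1* in WT cells was at 265 CPM (199 to 345) in the 51 cells with *Il7r* alone, 258 CPM (209 to 316) in the 90 with both, and 98.5 CPM (93.2 to 104) in the 3324 with *Il2ra* alone. In stimulated WT cells the *Il7r* classes were thus few, but stood above the rest without overlap of the intervals.

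In the IFT20-KO library *Dapl1* was at 168 CPM (114 to 239) in 46 cells with *Il7r* alone and at 50.7 CPM (46.9 to 54.7) in 3290 cells with *Il2ra* alone. The 68 cells with both, at 69.9 CPM (42.1 to 109), overlapped with those of *Il2ra* alone, unlike in WT. Cells with neither receptor had 51.0 CPM in IFT20-KO and 87.5 CPM in WT. For *Txnip* the counts were too few to read such a pattern after stimulation. In stimulated WT cells it was at 19.6 CPM (5.34 to 50.2, 4 UMIs) with *Il7r* alone and 23.3 CPM (20.8 to 26.1) with *Il2ra* alone. In IFT20-KO cells these values were 48.9 CPM (22.4 to 92.9) and 27.3 CPM (24.5 to 30.3), with overlapping intervals. In unstimulated cells *Txnip* was at 425 CPM (414 to 435) with *Il7r* alone and 377 CPM (362 to 392) with neither receptor.

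Stimulated WT cells with at least 3 *Dapl1* UMIs also differed from those with none. The 298 such cells had 369 CPM of *Btg1* (335 to 405), against 268 CPM (261 to 274) in the 6016 cells at 0. *Slfn2* was lower in them, at 475 CPM (437 to 516) against 553 CPM (543 to 562).

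A few stimulated cells had entered G2 or mitosis, and the members were compared between these and the other cells above 4056 UMIs. With at least 5 in 10000 UMIs from 10 G2/M genes, 249 stimulated WT cells (3.28%) and 308 stimulated IFT20-KO cells (4.25%) counted as cycling, and 115 and 166 cells lay within 20% of that limit. The cycling cells were deeper, with medians of 19166 against 13808 UMIs in WT and 16030.5 against 11623 in IFT20-KO.

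*Slfn2* was lower in cycling cells of both libraries, at 402 against 557 CPM in WT and 387 against 505 CPM in IFT20-KO, with log2 ratios of -0.47 (-0.54 to -0.41) and -0.38 (-0.45 to -0.32). *Btg1* was lower as well, with log2 ratios of -0.19 (-0.28 to -0.10) and -0.35 (-0.45 to -0.26). *Pdcd4* was higher in cycling WT cells, 53.1 against 39.8 CPM, and not separated in IFT20-KO cells, 45.4 against 47.5 CPM. *Dapl1* was at 115 against 86.1 CPM in WT cells, a log2 ratio of 0.42 (0.30 to 0.54). In IFT20-KO cells it was not separated, at 53.5 against 47.2 CPM, a log2 ratio of 0.18 (-0.01 to 0.37). The median log2 ratio of all genes was 0.10 in WT and 0.12 in IFT20-KO cells. The part of depth in these differences was not tested.

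The comparison of stimulated IFT20-KO with stimulated WT cells asked how the members stood in T cells without IFT20, an intraflagellar transport protein. Of the 8 members only *Dapl1* was at least 0.32 log2 units from the median of all genes, the limit set for this comparison, and it was lower in IFT20-KO. The median log2 ratio of all 13504 tested genes was 0.14, so members are given relative to it. Among all genes 10.8% were lower by that limit and 19.6% higher, so the members' 1 of 8 lower is near that background and 0 of 8 were higher. At 50 CPM or more, 1 of 4 members was lower and 0 were higher, against 8.73% and 2.62% of 2943 genes.

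*Dapl1* was at 86.3 CPM (84.6 to 88.0) in stimulated WT and 46.8 CPM (45.5 to 48.1) in stimulated IFT20-KO cells, 1.84-fold lower, and its relative log2 ratio was -1.02 (-1.07 to -0.97). Of all tested genes 1.89% had a lower ratio, and of those with at least 50 CPM 0.136%. Thinned to 4000 UMIs, *Dapl1* was in 20.9% (19.97% to 21.8%) of WT and 13.4% (12.6% to 14.2%) of IFT20-KO cells, where the unthinned shares were 32.8% and 18.4%. Cells with at least 3 *Dapl1* UMIs were 3.92% and 1.62%.

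The other members lay within that limit of the median of all genes, with *Slfn2* closest to it. *Txnip* had a relative log2 ratio of 0.27 (0.20 to 0.34), *Tob1* 0.24 (0.13 to 0.35), *Pdcd4* 0.11 (0.05 to 0.17) and *Tob2* 0.07 (0.01 to 0.13). *Btg2* was at -0.06 (-0.11 to -0.01), *Btg1* at -0.18 (-0.21 to -0.16) and *Slfn2* at -0.30 (-0.32 to -0.28). *Slfn2* passed the limit with the stricter cell filter of over 1000 genes and less than 10% mitochondrial UMIs, at -0.33, and *Tob1* and *Txnip* passed it after thinning to 1400 UMIs, at 0.40 each. The members' median was 0.01 relative to all genes, with 4 members above and 4 below.

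As the 2 libraries differ in depth and in low-UMI cells, the comparison was repeated in bins of UMIs per cell. The lowest bin was not at like depth, with medians of 1829 UMIs in WT and 2421 in IFT20-KO. Of the kept cells, 421 in WT and 0 in IFT20-KO had fewer than 1400 UMIs. *Dapl1* was lower in IFT20-KO in each of 4 bins of UMIs per cell. Below 4056 UMIs it was at 59.6 CPM in WT and 42.9 CPM in IFT20-KO, from there to 8112 at 185 and 84.4 CPM, from 8112 to 16224 at 87.6 and 44.2 CPM, and above that at 80.2 and 44.5 CPM. The relative log2 ratios were -0.42 (-0.62 to -0.21), -1.29 (-1.45 to -1.13), -1.03 (-1.10 to -0.96) and -0.87 (-0.97 to -0.78). The gap was smallest in the lowest bin, where median mitochondrial shares were 10.3% in WT and 5.66% in IFT20-KO. Of the cells in that bin, 291 in WT and 2654 in IFT20-KO had less than 5% mitochondrial UMIs, and 2010 and 4022 had 5% or more. These classes still differed in depth, with medians of 1254 UMIs in WT and 2358 in IFT20-KO under 5%, and of 1860.5 and 2452 at 5% or more. *Dapl1* was at 99.1 CPM (73.1 to 131) in WT and 51.1 CPM (45.7 to 56.9) in IFT20-KO cells with the lower share, and at 54.7 CPM (47.7 to 62.6) and 37.6 CPM (33.9 to 41.5) in those with the higher share.

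*Slfn2* changed sign across these bins, from 0.24 (0.17 to 0.32) below 4056 UMIs to -0.24, -0.16 and -0.16 above. *Btg1* went from 0.06 (-0.03 to 0.16) to -0.47, -0.20 and -0.12. Within the lowest bin both differed by mitochondrial share, in classes that were not at like depth in the 2 libraries. The part of depth in these differences was not tested. Under 5%, *Slfn2* was lower in IFT20-KO, at 549 CPM (485 to 620) in WT and 443 CPM (427 to 459) in IFT20-KO, and so was *Btg1*, at 409 CPM (354 to 470) and 268 CPM (255 to 281). At 5% or more, *Slfn2* was higher in IFT20-KO, at 341 CPM (323 to 360) and 396 CPM (384 to 408), and *Btg1* was at 226 CPM (211 to 241) and 234 CPM (224 to 243), with overlapping intervals. Over all cells with at least 4056 UMIs, 1 of 8 members was lower by the limit and 0 higher, against 8.68% and 12.5% of all genes, and 1 of 4 members and 0 at 50 CPM, against 2.83% and 0.788%.

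**Figure D5:**
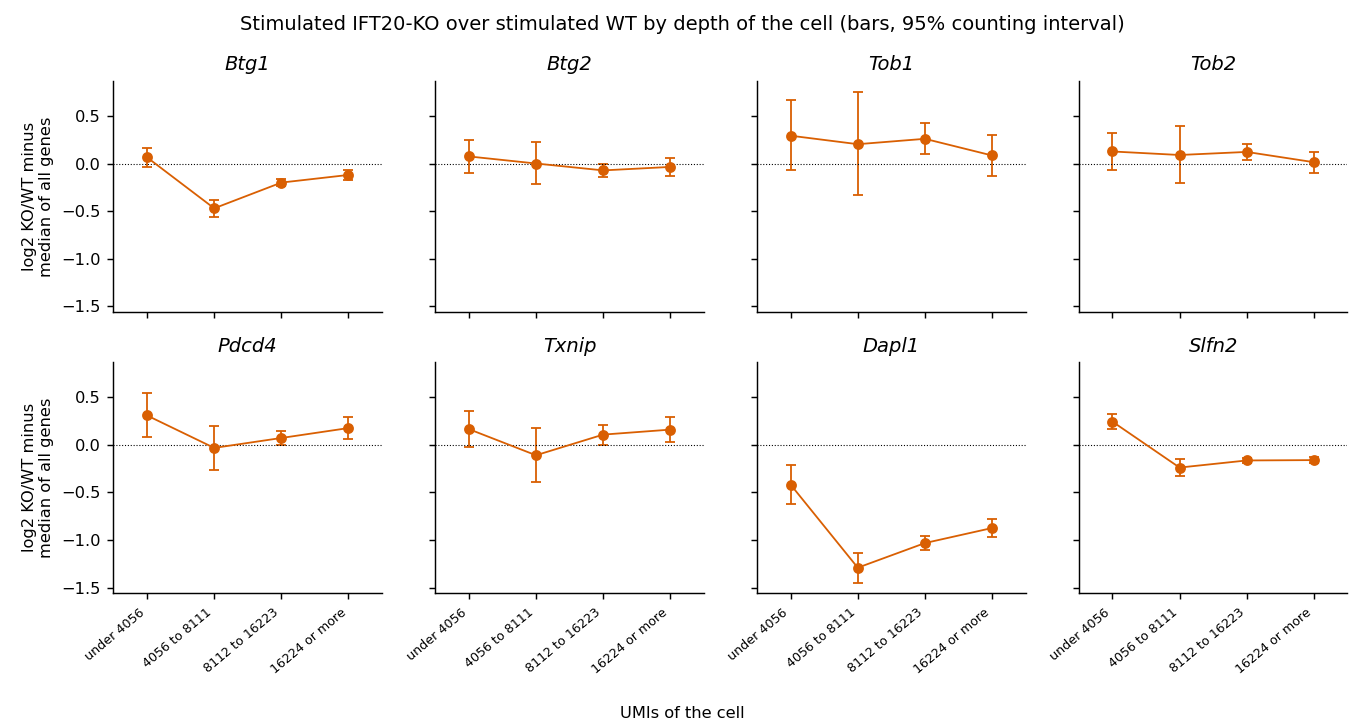
Log2 ratio of stimulated IFT20-KO over stimulated WT, relative to the median of all genes (vertical axis), for each member in 4 bins of UMIs per cell (horizontal axis; bars, 95% counting intervals). *Dapl1* lies below 0 in each bin, from -0.42 to -1.29, and *Slfn2* goes from 0.24 in the lowest bin to -0.16 in the highest.

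Within the stimulated WT library, the level of several members followed the UMIs of the cell. *Slfn2* was at 364, 446, 544 and 564 CPM from the lowest to the highest bin, whereas *Txnip* was at 64.4, 41.9, 25.0 and 24.2 CPM. *Btg1* and *Dapl1* were highest in the second bin, at 423 and 185 CPM. The IFT20-KO library held 48.0% of its cells in the lowest bin, so a library-wide CPM mixes these levels in other proportions.

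Genes of the same families and pathways give the setting. Their counts are read against the 23% of all tested genes that were 2-fold lower and the 19.3% that were 2-fold higher. Of 7 other tested BTG and Schlafen genes, 4 were at least 2-fold lower and 1 higher in stimulated than in unstimulated WT cells, with a median log2 ratio of -1.30. *Slfn5* had the lowest ratio, -5.02, at 56.9 and 1.75 CPM, and *Slfn1* (249 and 76.4 CPM) and *Slfn8* (35.0 and 8.09 CPM) were lower too, unlike *Slfn2*. Near-identical Schlafen paralogs can share reads, which limits the precision of each. In IFT20-KO cells *Slfn1* was at 57.9 CPM, a relative log2 ratio of -0.54.

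The deadenylase to which BTG and TOB proteins bind showed no common direction. Of 17 CCR4-NOT and PAN genes, 3 were 2-fold lower and 2 higher after stimulation, no more than the share of all genes, with a median log2 ratio of 0.04. *Pan2*, the catalytic subunit of the PAN deadenylase, was lowest at -1.54 and *Pabpc4*, a poly(A)-binding protein, highest at 1.90. Of 15 genes of the eIF4F complex and partners of PDCD4, 1 was lower and 3 higher. *Eif4ebp1*, an inhibitor of the cap-binding protein eIF4E, went from 12.5 to 310 CPM, opposite to its relative *Eif4ebp2*, at 83.3 and 40.6 CPM.

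Around TXNIP, 4 of 15 thioredoxin, alpha-arrestin and MondoA genes were lower and 6 higher. *Txn1*, the thioredoxin that TXNIP binds, was at 113 and 361 CPM in unstimulated and stimulated WT cells, a log2 ratio of 1.68. Of 22 other quiescence genes, 13 were lower and 0 higher, with a median log2 ratio of -1.38. *Tsc22d3*, a glucocorticoid-induced gene, had the lowest ratio at -4.58 and *Zfp36l1*, an mRNA-decay factor, the highest at 0.94. Of 4 death-associated protein genes none was past 2-fold, and *Dap*, the relative of *Dapl1*, was at 68.1 and 63.1 CPM.

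Between IFT20-KO and WT, by the same limit relative to all genes, 2 of 7 BTG and Schlafen genes were lower and 0 higher, where 10.8% of all genes were lower and 19.6% higher. The lower ones were *Slfn1* and *Slfn4*, the latter with only 7 and 5 UMIs in WT and IFT20-KO and an interval of -2.48 to 1.39. For CCR4-NOT and PAN 0 were lower and 2 higher, for eIF4F 3 and 0, and for thioredoxin 1 and 2. One of the higher thioredoxin genes was *Mlxipl*, with 8 and 13 UMIs and an interval of -0.68 to 2.18. The other quiescence genes had 4 lower and 6 higher, from *Klf6* with a relative log2 ratio of -0.52 to *Pik3ip1*, a PI3K inhibitor, with 0.73. *Dap* was at 63.1 and 62.1 CPM, without the gap of *Dapl1*.

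The genes most alike to each member were found over 12 points, the quartiles of UMIs per cell in the 3 libraries, among about 3434 genes with at least 50 CPM in any library. The points share libraries and depth, so these are descriptions. For *Dapl1* they were *Isg15* (Pearson r 0.99), an interferon-induced gene, *Crip1* (0.99) and *Gimap4* (0.99). *Isg15* was at 52.6, 10.4 and 4.22 CPM in the unstimulated WT, the stimulated WT and the stimulated IFT20-KO cells, *Crip1* at 1483, 207 and 139.5 CPM, and *Gimap4* at 395, 164 and 108 CPM. All 3 were lowest in IFT20-KO, as *Dapl1* was. Their selection for likeness over the same libraries favors this order, so it is no support for the *Dapl1* gap.

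*Txnip* was most alike to *Fam78a*, *Armc7* and *Add3*, and *Btg2* to *Add3*, *Grk6* and *Actn1*. *Pdcd4* was most alike to *Ifi208*, *Tbc1d10c* and *Pnrc2*, *Btg1* to *March2*, *Tcp11l2* and *H2-Ke6*, and *Tob1* to *Card6*, *Akna* and *Orai2*. For *Tob2* they were *Ppp4r3b*, *Zfp638* and *Fnbp1*, and for *Slfn2*, with the lowest likeness, *Arf6* (0.97), *Fam96b* and *Hnrnpf* (0.96 each).

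All 8 members are protein-coding genes on GRCm38. *Btg1* (ENSMUSG00000036478) lies on chr10:96617006-96622809 and *Btg2* (ENSMUSG00000020423) on chr1:134075170-134079120. *Tob1* (ENSMUSG00000037573) lies on chr11:94211454-94215495 and *Slfn2* (ENSMUSG00000072620) on chr11:83065112-83070678, the same chromosome. *Tob2* (ENSMUSG00000048546) lies on chr15:81848272-81858796 and *Pdcd4* (ENSMUSG00000024975) on chr19:53892231-53929860. *Txnip* (ENSMUSG00000038393) lies on chr3:96557957-96561883 and *Dapl1* (ENSMUSG00000026989) on chr2:59484653-59505020.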

How the data were processed

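The 3 deposited UMI count tables were used, 1 per condition. The authors aligned the reads to mm10, called cells and counted UMIs per gene with Cell Ranger (3.1.0 in the matrix header), and deposited whole-number counts without normalization. The labels name a 5′ kit and the methods a 3′ kit.

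Everything else was computed here in Python 3.11.15 (numpy 2.4.6, scipy 1.17.1, pandas 2.3.3). Cells were kept at over 200 genes and less than 15% of UMIs from mitochondrial genes, as in the study's methods. UMIs were summed per library as CPM with exact Poisson intervals, ratios with exact binomial and shares with Clopper-Pearson intervals, at the 95% level. The total was 37133949, 116979076 and 106435143 UMIs. With 1 library per condition there is no test, and a gene counts as past a fold of 2 (stimulation) or 0.32 log2 units (IFT20-KO, relative to the median of all genes). Low-UMI cells were kept, and bins of UMIs per cell and thinned cells serve as alternatives. No doublet caller was run; an alternative leaves out the 5% of cells with most UMIs. The scripts were tested on simulated data. Named companions were the highest and lowest ratio of each list with at least 10 CPM. The members and lists were chosen with earlier results of these data known. Gene positions follow GENCODE M21, in which 30934 of 31053 identifiers were found. Protein sequences were not used here.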

Additional observations from a re-analysis of the deposited data

How the results depend on the processing

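Each ratio was recomputed under 12 alternatives of scaling, cell filter, depth and gene minimum. For stimulation, 6 members were at least 2-fold lower and 0 higher under every alternative but UMIs per cell, which gave 2 lower and 2 higher. The members' median of -1.97 became -1.80 with median-ratio size factors, -0.61 with UMIs per cell, -2.07 without ribosomal and mitochondrial genes and -1.85 after thinning to 1400 UMIs, where its value relative to all genes was -1.98 (main -1.88). *Txnip* ranged from -4.08 to -2.62, and *Tob2* from -0.23 to 1.22, with the main sign in 10 of 12 alternatives. For IFT20-KO, *Dapl1* ranged from -1.15 to -0.93 relative to all genes. On that scale the other members also kept their sign, except *Btg2*, which turned to 0.037 after thinning to 1400 UMIs. On the plain log2 scale *Dapl1*, *Btg1* and *Slfn2* kept their sign in 12 of 12 alternatives, and the other 5 turned with UMIs per cell, such as *Tob1* at -0.25 and *Txnip* at -0.22. Of these 5, *Btg2* kept the main sign in 9 of 12 alternatives and the others in 11 of 12. The members' median of 0.14 became -0.027 with median-ratio size factors, -0.48 with UMIs per cell, 0.067 in cells with at least 4056 UMIs, 0.24 after thinning to 1400 and 0.059 after thinning to 4000 UMIs. Relative to all genes, 0.0072 became -0.0067 with the stricter filter of over 1000 genes and less than 10% mitochondrial UMIs, 0.062 after thinning to 1400 and -0.013 after thinning to 4000. Members higher by 0.32 log2 units were 2 with the mean of per-cell fractions and 2 after thinning to 1400 UMIs (main 0), and members lower were 2 with the stricter filter and 2 after thinning to 1400 (main 1). The cause of these moves was not tested. Shares of all genes past the limits are given only for all filtered cells and for cells with at least 4056 UMIs. The counts of members under every other alternative, for stimulation and for IFT20-KO, are therefore not read as results about the members.

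A condition is 1 library, so genotype or stimulation and the library, its animals and its preparation cannot be told apart. Intervals cover counting error only. No paired analysis was possible because each condition has a single library and no fit was made. With 1209 to 1426 UMIs a library, *Tob1* is among the members with the fewest counts. The levels in *Foxp3* cells with all UMIs, the split by *Dapl1* UMIs and the CACGAG motif were chosen after the data were seen.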
